A study of Mus musculus with 48 samples.

Results

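The genes described here share a small daily rhythm across 4 parts of the mouse brain, with the fitted peak in the middle or late night, from ZT17 to before ZT23 (ZT, zeitgeber time, hours after lights on). They were chosen by their measured values. After the mean of each tissue had been subtracted, a cosine and a sine of 24 h were fitted to the values of all 48 arrays, and a gene was a member where the F test gave p under 0.001 with 2 and 42 degrees of freedom and the fitted peak lay in that window. The rule left out 15 genes by name (Hspa5, Sdf2l1, Creld2, Pdia6, Manf, Hyou1, Calr, Dnajb1, Dnajb11, Hspb1, Hsph1, Egr3, Homer1, Flt1 and Cldn5), of which 14 met its other terms. It took 215 of 17258 genes tested, which is 1.25% of them. A p under 0.001 with a peak at any time was met by 704 genes, among them 246 with a peak from ZT5 to ZT11, 159 from ZT11 to ZT17 and 70 from ZT23 to ZT5.

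Male C57BL/6 mice lived under 12-h light and 12-h dark phases and were killed every 4 h through 2 successive 24-h cycles, at ZT3, ZT7 and ZT11 in the light and at ZT15, ZT19 and ZT23 in the dark. The dissected parts were the habenula (HAB), the striatum (STR), the prefrontal cortex (PFC) and the midbrain block that holds the ventral tegmental area and the substantia nigra (SN/VTA), each cut from coronal slices. Each array was an Affymetrix Mouse Gene 2.0 ST array and carried RNA pooled from 3 mice, with 1 array per tissue, time and cycle, so that p-values measure the spread between pools and not between mice. The labels give the same strain for all mice and no treatment or mutation, and an age is not used here. The deposited values are log2 levels, with array medians from 5.84 to 6.07. Arrays of the same tissue and time in the 2 cycles correlated with r from 0.982 to 0.995 across genes, and each of the 48 arrays correlated best with its own tissue. Of the markers of the dissected parts, 5 of 6 SN/VTA dopamine neuron genes, 5 of 5 PFC projection neuron genes, 4 of 4 STR medium spiny neuron genes and 6 of 6 habenula genes were higher in their own tissue than in the mean of the others by at least 1 on the log2 scale. In bulk tissue, a lower level from fewer cells of a type and one from less RNA per cell cannot be told apart.

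The members are described by role, in groups put together after their names had been seen and not tested as groups. Cytosolic chaperones such as Hspa8 help new or damaged proteins to fold, together with co-chaperones that steer them, and many of these genes are driven by heat shock factor 1 through the heat shock element (HSE). Proteins that enter the endoplasmic reticulum (ER) meet another set of chaperones, glycosylation enzymes and a degradation route, which the unfolded protein response adjusts through Xbp1 and Atf6 at the ER stress response element (ERSE). In mice, which are active at night, food intake, body temperature and synaptic activity rise in the dark. Whether the members follow any of these was not tested.

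The promoters of the members that carry these elements are shown first, because the HSE and the ERSE are the documented control sites of the 2 folding systems. Sequences are RefSeq promoters on GRCm38.p6, from 250 bases before to 50 bases after each start, read on the strand of the gene. Of the 215 members 177 had a promoter in the table, with 211 promoters in all, against 16714 promoters of 13366 genes tested. The HSE was searched as GAANNTTC, on both strands. Chordc1, the member with the largest amplitude, holds 2 such matches, in capitals and 2 bases apart, the first of which spans the start, in chr9:18292017-18292316 on the plus strand.
Chordc1: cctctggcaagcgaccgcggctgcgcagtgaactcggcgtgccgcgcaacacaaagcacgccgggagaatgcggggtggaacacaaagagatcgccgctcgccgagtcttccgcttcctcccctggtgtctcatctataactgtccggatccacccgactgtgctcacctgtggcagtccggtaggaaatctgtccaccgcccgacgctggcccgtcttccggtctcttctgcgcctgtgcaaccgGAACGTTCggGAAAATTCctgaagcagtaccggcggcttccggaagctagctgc
The matches of 3 other cytosolic chaperone genes among the members are given as stretches of 60 bases with the match in capitals. Dnaja4 (chr9:54699443-54699502, plus strand), Bag3 (chr7:128523573-128523632, plus strand) and Fkbp4 (chr6:128438774-128438833, minus strand) were picked after the matches were seen, and a further match in the promoter of Dnaja4 is not shown.
Dnaja4: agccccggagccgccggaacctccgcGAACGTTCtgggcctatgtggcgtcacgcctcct
Bag3: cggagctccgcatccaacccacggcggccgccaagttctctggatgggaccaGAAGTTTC
Fkbp4: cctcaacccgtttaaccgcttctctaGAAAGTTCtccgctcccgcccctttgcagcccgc
The next members by amplitude with an HSE match were Fosl2 (chr5:32136222-32136281, plus strand) and Mkks (chr2:136891568-136891627, minus strand).
Fosl2: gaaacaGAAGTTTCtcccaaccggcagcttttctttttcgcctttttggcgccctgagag
Mkks: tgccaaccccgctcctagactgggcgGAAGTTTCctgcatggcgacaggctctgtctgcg

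An HSE match was present in 4 of the 13 promoters of cytosolic chaperone members (30.8%), in 4.74% of the promoters of all members and in 6.05% of the promoters of all genes tested. Tested genes of either folding system outside the members were not counted as a group. A link of the HSE or the ERSE to the rhythm was not tested. The ERSE consists of CCAAT and CCACG with 9 bases of any kind between them. It was found in 3 of the 211 member promoters (1.42%), against 0.12% of the promoters of all genes tested. All 3 belonged to ER genes, which had 14 promoters among the members: Hsp90b1 (chr10:86705618-86705677, minus strand), Dnajc3 (chr14:118937806-118937865, plus strand) and Syvn1 (chr19:6046511-6046570, plus strand). They are shown with the whole element in capitals, and a further match in the promoter of Hsp90b1 on the opposite strand is not shown.
Hsp90b1: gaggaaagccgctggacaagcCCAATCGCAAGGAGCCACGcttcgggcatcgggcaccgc
Dnajc3: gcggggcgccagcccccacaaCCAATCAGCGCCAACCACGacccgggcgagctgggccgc
Syvn1: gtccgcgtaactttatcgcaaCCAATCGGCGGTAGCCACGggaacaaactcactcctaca

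The cyclic AMP response element (CRE, TGACGTCA) and the E-box of the clock (CACGTG) were read in the same way. Among the members with either, Tra2a (CRE, chr6:49264046-49264105, minus strand), Anln (E-box, chr9:22389239-22389298, minus strand) and Mkks (CRE, chr2:136891521-136891580, minus strand) had the largest amplitudes, and Mkks also holds the HSE match above.
Tra2a: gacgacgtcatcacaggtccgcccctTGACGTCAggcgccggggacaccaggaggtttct
Anln: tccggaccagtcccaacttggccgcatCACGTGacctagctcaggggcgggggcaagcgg
Mkks: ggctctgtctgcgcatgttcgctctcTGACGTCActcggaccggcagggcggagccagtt
The CRE was found in 4.27% of the member promoters and in 2.6% of all, and the E-box in 4.74% of the member promoters and in 9.08% of all. The D-box (TTATGTAA or TTACGTAA) was found in 1.9% and 0.796%, the RORE (TAGGTCA or TGGGTCA) in 6.16% and 5.52%, the glucocorticoid response element (GNACA and TGTNC, 3 bases apart) in 0.948% and 0.383%, and the serum response element (CC and GG around 6 bases of A or T) in 0.474% and 1.35%, each time with the members first. The share of G and C had a median of 61% in member promoters and 59% in all. These are counts of letters in a window of 300 bases and say nothing about binding.

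The rhythm of the members was small. The amplitude, which is the height of the fitted peak over the mean in log2 units, had a median of 0.101 among the members and ranged from 0.05 to 0.248, against a median of 0.042 over all genes tested. As a fold from trough to peak this was a median of 1.15 and a range from 1.07 to 1.41. Only 5 members reached an amplitude of 0.2, and 106 stayed under 0.1. The fitted peaks thinned out toward dawn: 47 members peaked from ZT17 to before ZT18, 52 from ZT18, 47 from ZT19, 32 from ZT20, 22 from ZT21 and 15 from ZT22 to before ZT23. The lowest mean over the arrays of a time fell at ZT7 for 166 members and at ZT11 for 40. The highest fell at ZT15 for 68, at ZT19 for 81 and at ZT23 for 62. These values were used by the rule and are given as a description.

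**Figure D1:**
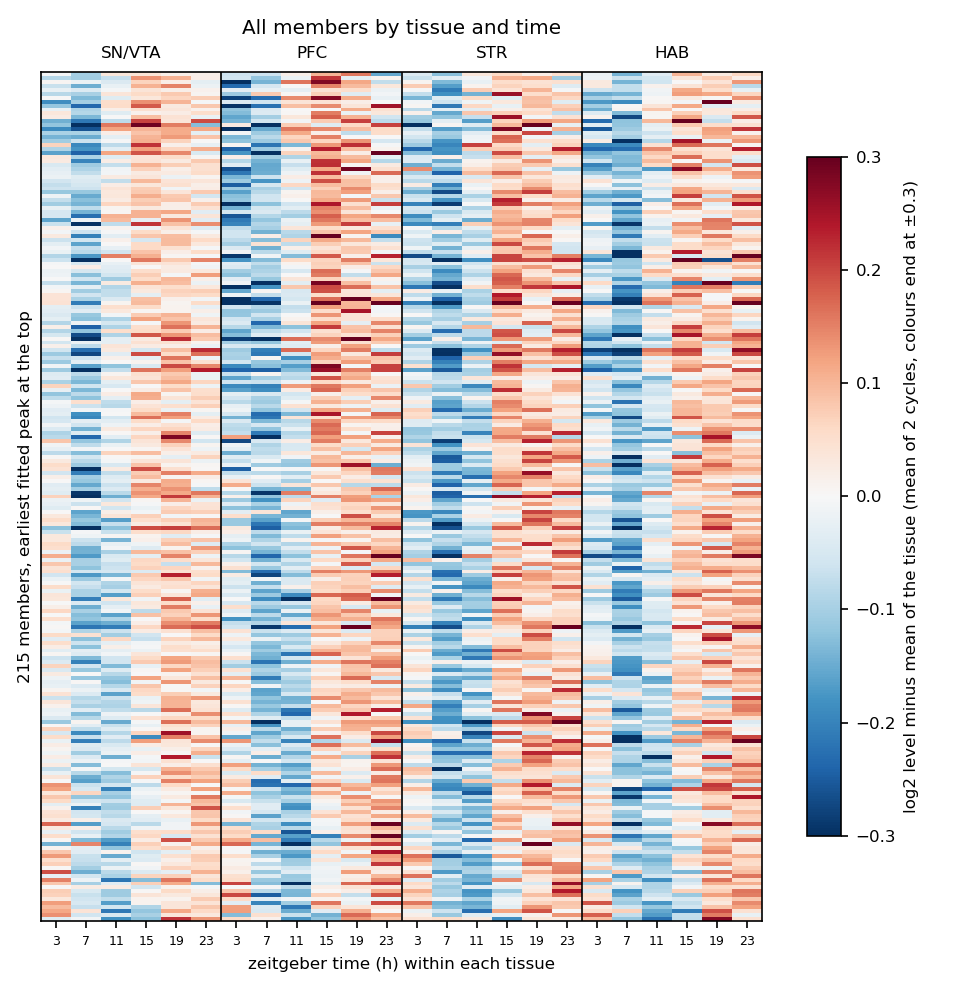
Heat map of the 215 members (rows, earliest fitted peak at the top) by tissue and zeitgeber time in hours (columns). Colour is the log2 level minus the mean of the tissue, averaged over the 2 cycles, with colours ending at 0.3 either way. The blue columns lie at ZT7 in each tissue, the time of the lowest mean for 166 members, and the red ones at ZT15 to ZT23.

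At the edges of the rule, Syvn1 was the first member after the start of the window with a fitted peak at ZT17.06, and Ppp1r13b lay just before it at 16.99. Ttc41 was the last inside at ZT22.94, and Prrt1 lay just after at 23.01. The p of Zfp983 (0.000998) was just inside the threshold and that of Cbln2 (0.00101) just outside, with amplitudes of 0.124 and 0.125.

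Chordc1, a co-chaperone of Hsp90 that is itself induced by heat shock, had the largest amplitude, 0.248 ± 0.028 (SE), and peaked at ZT19.8. Its 8 arrays per time, set against the mean of each tissue, had a lowest, median and highest log2 difference of -0.31, -0.07 and 0.14 at ZT3, of -0.43, -0.27 and -0.16 at ZT7, of -0.35, -0.13 and 0.06 at ZT11, of -0.06, 0.13 and 0.26 at ZT15, of -0.11, 0.16 and 0.35 at ZT19 and of 0.09, 0.23 and 0.39 at ZT23. All 8 arrays of ZT19 and all 8 of ZT23 were above all 8 of ZT7. In single tissues its amplitude was 0.227 in SN/VTA, 0.302 in PFC, 0.261 in STR and 0.211 in HAB, with peaks between ZT19.1 and ZT20.7. The ZT19 arrays lay wholly above the ZT7 arrays for 33 of the 215 members, and for 0.284% of all genes tested, a contrast close to the one that chose the members.

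Cytosolic chaperones and their partners made up 14 members, with amplitudes from 0.068 to 0.248, a median of 0.105, and a median peak at ZT19.9. The Hsp90 ATPase activators Ahsa2 and Ahsa1 had amplitudes of 0.199 ± 0.029 and 0.109 ± 0.017. Stip1, which links Hsp70 to Hsp90, had 0.137 ± 0.019 and a peak at ZT21.2. The immunophilin Fkbp4, a partner of Hsp90 in steroid receptor complexes, had 0.097 ± 0.018. For Ahsa1 the lowest, median and highest array stood at -0.05, 0.07 and 0.17 at ZT19, against -0.21, -0.15 and -0.09 at ZT7. The arrays of the 2 times did not overlap for Ahsa1.

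The constitutive Hsp70 Hspa8 had an amplitude of 0.076 ± 0.011 and a peak at ZT20.8, and its arrays ran from 0 to 0.11 at ZT19 and from -0.14 to -0.01 at ZT7. The platform listed 4 rows for Hspa8, and all peaked from ZT20.1 to ZT21.1, with amplitudes of 0.076, 0.145, 0.14 and 0.133. The Hsp110 family members Hspa4l and Hspa4, which exchange the nucleotide of Hsp70, had 0.107 ± 0.024 and 0.074 ± 0.012. By tissue, Hspa4l had 0.026 in SN/VTA, 0.059 in PFC, 0.179 in STR and 0.195 in HAB. Bag3, an Hsp70 co-chaperone of selective autophagy, peaked at ZT22.1, as did Hspa4. The J-domain gene Dnaja4 (0.125 ± 0.025), the Hsp70-interacting St13 (0.068 ± 0.015) and the chaperonin subunits Cct4 (0.101 ± 0.017) and Cct5 (0.083 ± 0.013) complete the group with Dnajc21, a J-domain gene of ribosome assembly (0.165 ± 0.034). On a list of 45 cytosolic heat shock genes and co-chaperones, 41 were tested and 13 were members (31.7%, against the 1.25% of all genes). Of the rest, 3 had been left out by name and 2 had a shared rhythm in another window (Hspa1b at ZT16.9 and Hspa2 at ZT16.1). The others did not meet the p of the rule. The median amplitude of the list was 0.08, against 0.042 for all genes tested, in the quantity that the rule selected on.

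**Figure D2:**
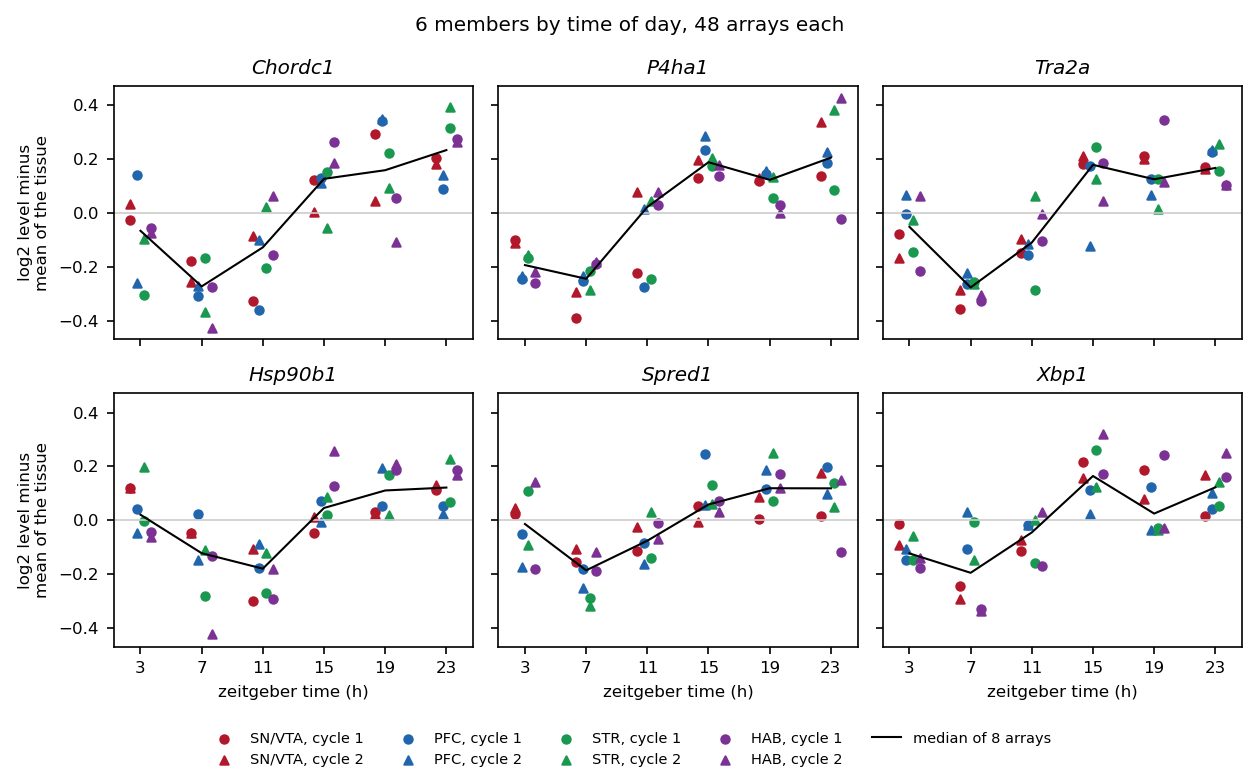
Log2 level minus the mean of the tissue (vertical axis) at 6 zeitgeber times in hours (horizontal axis) for 6 members; circles are the first cycle, triangles the second, colours the tissues, and the line the median of 8 arrays. For Chordc1, P4ha1 and Tra2a the 8 arrays of ZT7 all lie below 0, and the 8 arrays of ZT23 all lie above 0 for Chordc1 and Tra2a.

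Genes of the ER made up another 14 members, with amplitudes from 0.066 to 0.231, a median of 0.105 and a median peak at ZT19.8. P4ha1, the catalytic subunit of prolyl 4-hydroxylase that modifies collagen in the ER, was the largest, with 0.231 ± 0.028 and a peak at ZT18.5. Its arrays had a lowest, median and highest value of -0.26, -0.2 and -0.1 at ZT3, of -0.39, -0.24 and -0.18 at ZT7, of -0.28, 0.02 and 0.08 at ZT11, of 0.13, 0.19 and 0.28 at ZT15, of 0, 0.13 and 0.16 at ZT19 and of -0.02, 0.21 and 0.43 at ZT23. Every array of ZT15 was above every array of the 3 light times.

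Hsp90b1, the Hsp90 of the ER, had 0.164 ± 0.022 and a peak at ZT21, with arrays from 0.02 to 0.21 at ZT19 and from 0.03 to 0.23 at ZT23, and from -0.3 to -0.09 at ZT11. Xbp1, the transcription factor of the unfolded protein response, had 0.16 ± 0.023 and a peak at ZT18.3, and its largest amplitudes in single tissues were 0.262 in HAB and 0.203 in SN/VTA, beside 0.099 in STR and 0.079 in PFC. The array does not separate its spliced from its unspliced form in these values. The disulphide isomerase Pdia3 had 0.125 ± 0.026. The co-chaperone Dnajc3, which also restrains a kinase of translation, had 0.112 ± 0.025. By tissue, Dnajc3 had 0.179 in SN/VTA, 0.154 in PFC and 0.159 in HAB, but 0.015 in STR with a fitted peak at ZT1.6. The prolyl isomerase Fkbp14 had 0.091 ± 0.022.

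The degradation genes Syvn1, a ubiquitin ligase of the ER membrane, and Sel1l, its partner, had 0.097 ± 0.024 and 0.066 ± 0.014. The glycoprotein folding sensor Uggt1 and the oligosaccharyltransferase subunits Stt3b and Ostc had between 0.084 and 0.085. Of 44 tested genes on a list of ER chaperones and the unfolded protein response, 5 were members (11.4%, against the 1.25% of all genes). By name 7 were left out, and 3 had a shared rhythm in another window. On the list of ER-associated degradation 2 of 15 were members (13.3%), and on that of translocation, glycosylation and vesicle traffic 3 of 43 (6.98%). The median amplitude was 0.056 for the chaperone list and 0.035 for each of the others, against 0.042 for all genes tested.

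Feedback inhibitors of ERK signalling and the ETS factors below this pathway formed a group of 6 members with a median amplitude of 0.162 and a median peak at ZT19.2. Dusp6, the phosphatase of ERK, had 0.169 ± 0.033 and a peak at ZT17.4, and Spry4, which blocks the pathway below receptors, had 0.172 ± 0.031 and a peak at ZT17.3. Spred1, a partner of neurofibromin against Ras, had 0.154 ± 0.019, with a lowest, median and highest array of 0, 0.12 and 0.25 at ZT19, against -0.32, -0.19 and -0.1 at ZT7. The ETS factors Etv5 and Etv1 had 0.172 ± 0.027 and 0.104 ± 0.025. By tissue, Etv1 had 0.131 in SN/VTA, 0.183 in STR and 0.146 in HAB, but 0.04 in PFC with a fitted peak at ZT9.3. For Etv5 all arrays of ZT19 (-0.02 to 0.29) were above all of ZT7 (-0.41 to -0.03), but a second and dimmer row of Etv5 had an amplitude of 0.017.

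Activity-regulated genes, which neurons switch on after synaptic input, gave 5 members on a list of 45 tested (11.1%, against the 1.25% of all genes). On that list 2 more were left out by name and 3 had a shared rhythm in another window. Fosl2, a Fos-family subunit of AP-1, had 0.172 ± 0.035 and a peak at ZT20.5. The secreted synapse protein Nptx2 and the neuropeptide precursor Vgf peaked late, at ZT22.2 and ZT22.5, with 0.138 ± 0.031 and 0.132 ± 0.028. By tissue, Nptx2 had 0.058 in SN/VTA, 0.302 in PFC, 0.164 in STR and 0.088 in HAB. Rgs2, a brake on G-protein signalling, had 0.076 ± 0.018 and a peak at ZT17.6. The fifth was Dusp6.

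Genes of RNA processing, export and decay were the most numerous group put together here, with 23 members, a median amplitude of 0.085 and a median peak at ZT18.7. Tra2a, a splicing regulator, had 0.225 ± 0.022 and a peak at ZT19.4. Its arrays had a lowest, median and highest value of -0.21, -0.05 and 0.07 at ZT3, of -0.36, -0.28 and -0.22 at ZT7, of -0.29, -0.11 and 0.06 at ZT11, of -0.12, 0.18 and 0.25 at ZT15, of 0.01, 0.12 and 0.34 at ZT19 and of 0.1, 0.17 and 0.25 at ZT23. All 8 arrays of ZT7 lay below every array of each dark time. Hexim1, an inhibitor of the elongation kinase P-TEFb, and Sfpq, a paraspeckle protein, followed with 0.158 ± 0.024 and 0.149 ± 0.019, both named after their values were seen. On the list of 30 tested splicing factors and RNA-binding proteins, Tra2a alone was a member (3.33%, against the 1.25% of all genes). A shared rhythm in another window was found for 9.

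Genes of chromatin and the retinoblastoma family (11 members, among them Rb1, Rbl2 and Uhrf2) had small amplitudes with a median of 0.083, and their median peak, ZT18.1, was the earliest of the groups with over 2 members. Cilium genes (8 members) had a median of 0.122, led by Tubd1, delta tubulin (0.181 ± 0.029), and Mkks, a chaperonin-like Bardet-Biedl syndrome protein (0.165 ± 0.024). Among ligands and receptors, the peptide hormone apelin (Apln) had 0.184 ± 0.034 and a peak at ZT21.5, the serotonin receptor gene Htr1b 0.166 ± 0.04, Erbb3, a neuregulin receptor, 0.145 ± 0.034, and Gpr17, a receptor of oligodendrocyte precursors, 0.141 ± 0.029. The thyroid hormone genes Dio2, the deiodinase that makes the active hormone, and Thrb, a receptor for it, had 0.139 ± 0.028 and 0.108 ± 0.019. A second row of Dio2 had an amplitude of 0.114 and a peak at ZT11.9, outside the window. In all, 15 members had more than 1 row, and for 8 of them, Etv5, Dio2, Rb1 and Rgs2 included, another row peaked outside the window.

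Other members of large amplitude belong to none of these groups. They were Noxred1 (0.228 ± 0.045), the zinc finger gene Zbtb40 (0.201 ± 0.024), Zfp773 (0.196 ± 0.04), the apoptosis inhibitor Bcl2 (0.191 ± 0.039), Anln, an actin-binding protein of myelin and of dividing cells (0.181 ± 0.042), the zinc transporter Slc39a2 (0.18 ± 0.03) and Tex29 (0.169 ± 0.039). The arrays of ZT19 and ZT7 overlapped for Noxred1, with -0.23 to 0.24 at ZT19 and -0.59 to -0.05 at ZT7, and for Bcl2, with -0.08 to 0.21 at ZT19 and -0.48 to -0.03 at ZT7.

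Of the core clock, 1 gene was a member. Clock, the partner of Bmal1 (Arntl) in the clock's activator, was that member among 21 tested clock genes and outputs (4.76%, against the 1.25% of all genes), with an amplitude of 0.058 ± 0.014 and a peak at ZT21.8, while 14 others had a shared rhythm in another window. Its arrays ran from -0.01 to 0.11 at ZT23 and from -0.23 to 0.09 at ZT7, and overlapped. Lists of glucocorticoid-responsive genes (21 tested), cholesterol synthesis (18), aminoacyl-tRNA synthetases and the amino acid response (28), ribosome biogenesis and translation (28), proteasome and ubiquitin (26), ion channels (36) and angiogenic signalling (27) held 0 members, beside a share of 1.25% over all genes, although 12 of the glucocorticoid-responsive genes had a shared rhythm in another window. Among the marker lists of cell types, Gpr17 was the only member, and 2 endothelial markers had been left out by name. The mean over the 5 tested oligodendrocyte precursor markers, Gpr17 among them, ran over arrays from -0.04 to 0.12 at ZT23 and from -0.18 to 0.02 at ZT7, as a log2 difference from the mean of the tissue. That over 4 ependymal markers ran from -0.01 to 0.33 at ZT19 and from -0.16 to 0.21 at ZT7. For the 8 mural markers the arrays ran from -0.16 to 0.19 at ZT19, with a median of 0.01, and from -0.04 to 0.51 at ZT7, the trough of most members, with a median of 0.14. For the 8 oligodendrocyte markers they ran from -0.24 to 0.13 at ZT19, with a median of -0.06, and from -0.16 to 0.5 at ZT7, with a median of 0.04. Other lists varied as well. The 6 habenula neuron markers ran from 0.06 to 0.25 at ZT23, with a median of 0.11, and from -0.12 to 0.13 at ZT7, with a median of 0.03. The 7 choroid plexus markers ran from -0.23 to 0.91 at ZT15, with a median of 0.18, and from -1.22 to 1.01 at ZT7, with a median of -0.13. The remaining marker lists are not described by time here. The part of such cells in the members' values was not tested.

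The members were also described in each tissue, without a test, since the rule used all 4. The fitted peak of a single tissue lay in the window for 167 members in SN/VTA, 164 in PFC, 189 in STR and 187 in HAB. Of all genes tested, 25%, 22.3%, 22.7% and 26.7% had such a peak, in the same order of tissues. The peak lay in the window in all 4 tissues for 96 members, and in the dark in all 4 for 193. The shares of all genes for all 4 tissues at once are not given here. The median amplitude was 0.0857 in SN/VTA, 0.118 in PFC, 0.119 in STR and 0.107 in HAB, and that of all genes tested followed the same order, with 0.055, 0.0777, 0.0758 and 0.0705, apart from PFC and STR changing places. The largest amplitude of a member fell in SN/VTA for 23, in PFC for 69, in STR for 74 and in HAB for 49. Cytosolic chaperones had their largest amplitude in STR for 7 of 14 and in SN/VTA for 0. The share of all genes with their largest amplitude in each tissue is not given here. The counts of largest amplitude are therefore not read as a result about the members or the chaperones.

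The rule was also run on part of the arrays, and the genes it took were fitted in the rest, which its F test had not used. This step was added after the data had been seen. The row per gene and the lowest mean level allowed still came from all arrays. The members themselves were chosen with both cycles and all tissues. The p-values below therefore describe the genes chosen on each part and are not a separate test of the members. Chosen on the first cycle, 113 genes were fitted in the second, and 84 of them (74.3%) again peaked in the window, against 25.8% of all genes. There, 44 (38.9%) peaked in the window with an unadjusted limma p under 0.05, against 3.41% of all genes. With a peak in the window, 4 passed an adjusted p under 0.05, against 0.11%. Chosen on the second cycle, 44 genes were fitted in the first, where 25 (56.8%) peaked in the window against 24.5% of all. There, 23 (52.3%) had such a peak and an unadjusted p under 0.05, against 4.55%. With such a peak, 13 passed the adjusted threshold, against 0.452%. Tra2a and P4ha1 passed in each direction, with limma adjusted p of 0.0419 and 0.0302 in the second cycle and 1.6e-05 and 0.0017 in the first, and so did Spred1, with 0.0198 and 0.0368, and Hexim1, with 0.0264 and 0.0485. Chordc1 had 0.0578 in the second cycle and 0.000865 in the first. These fits took the arrays of a cycle singly. Tissues of the same collection may come from the same mice, so these p-values may be too small.

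Holding out a tissue left 12 arrays for each fit. Of 121 genes chosen without SN/VTA, 85 (70.2%) peaked there in the window against 25% of all genes, and 35 (28.9%) had an unadjusted p under 0.05 as well, against 2.08%. Of 130 chosen without PFC these were 75 (57.7%) against 22.3%, and 29 (22.3%) against 2.43%. Of 131 chosen without STR they were 91 (69.5%) against 22.7%, and 29 (22.1%) against 2.1%. Of 142 chosen without HAB they were 105 (73.9%) against 26.7%, and 30 (21.1%) against 1.85%. Only Tra2a in SN/VTA passed an adjusted p under 0.05 (limma, 0.00904) with a peak in the window, against 0.0116% of all genes there. By the same terms 0 of the chosen genes passed in PFC (0.0116% of all), in STR (0% of all) or in HAB (0% of all). Tissues of the same collection may come from the same mice, so the tissues are not independent of each other in the way the cycles are.

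**Figure D3:**
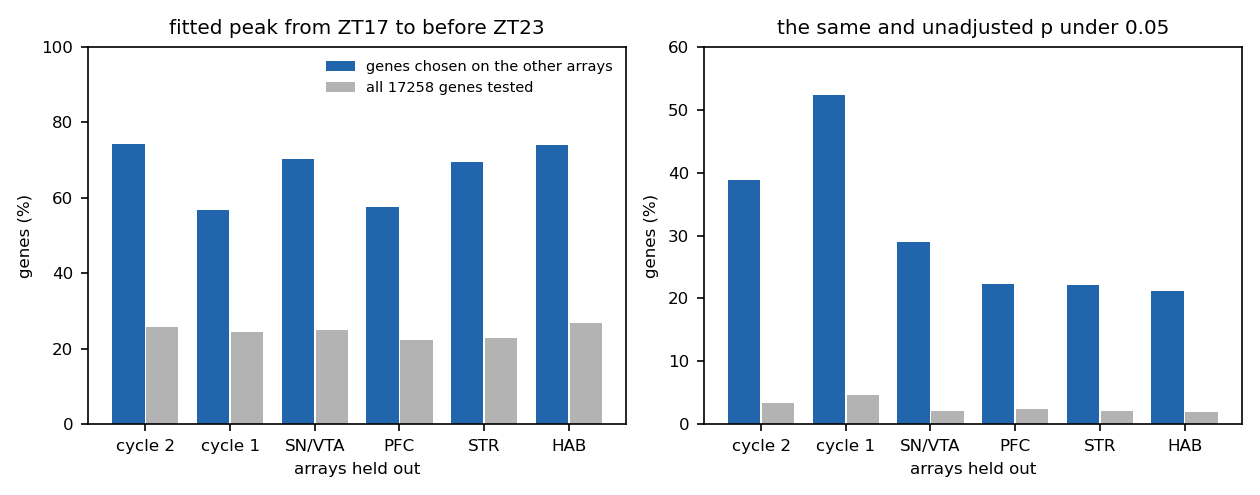
Share of genes (%, vertical axes from 0) for each set of arrays held out (horizontal axis); blue bars are genes chosen on the other arrays, grey bars all 17258 genes tested. Left, the share with a fitted peak in the window, from 56.8% to 74.3% for chosen genes; right, the share that also had an unadjusted p under 0.05, from 21.1% to 52.3%.

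Whether the rhythm differed between tissues was tested with terms that the rule did not use, in 1 limma fit over all genes. The error of the rule holds these differences, so genes with large ones were less likely to be chosen, and the same is true of the 12-h and cycle terms below. Only Syvn1 passed (limma adjusted p = 0.00592), against 0.029% of all genes tested, and 19 members (8.84%) had an unadjusted p under 0.05, against 6.65% of all genes. Trim9, a neuronal ubiquitin ligase, Slc36a1, a lysosomal amino acid transporter, Hsp90b1 and Irs2, an adaptor of insulin receptors, came next, with limma adjusted p of 0.266, 0.325, 0.49 and 0.506.

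In PFC, Syvn1 had log2 levels in the first and second cycle of 7.56 and 7.62 at ZT3, 7.71 and 7.88 at ZT7, 8.14 and 8.05 at ZT11, 8.21 and 8.21 at ZT15, 8.09 and 8.01 at ZT19 and 7.79 and 7.93 at ZT23. The cycles traced the same course there, with every array of ZT11, ZT15 and ZT19 above every array of the other times. In SN/VTA the levels ran from 8.08 to 8.37 with no such order, in STR from 7.91 to 8.15 and in HAB from 8.1 to 8.42. The fitted amplitude was 0.289 with a peak at ZT15.1 in PFC, outside the window, against 0.029 in SN/VTA, 0.076 in STR with a peak at ZT19.3 and 0.109 in HAB with a peak at ZT21.4. The test covers any difference among the 4 tissues and does not single out PFC. With either cycle left out, 0 members passed.

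**Figure D4:**
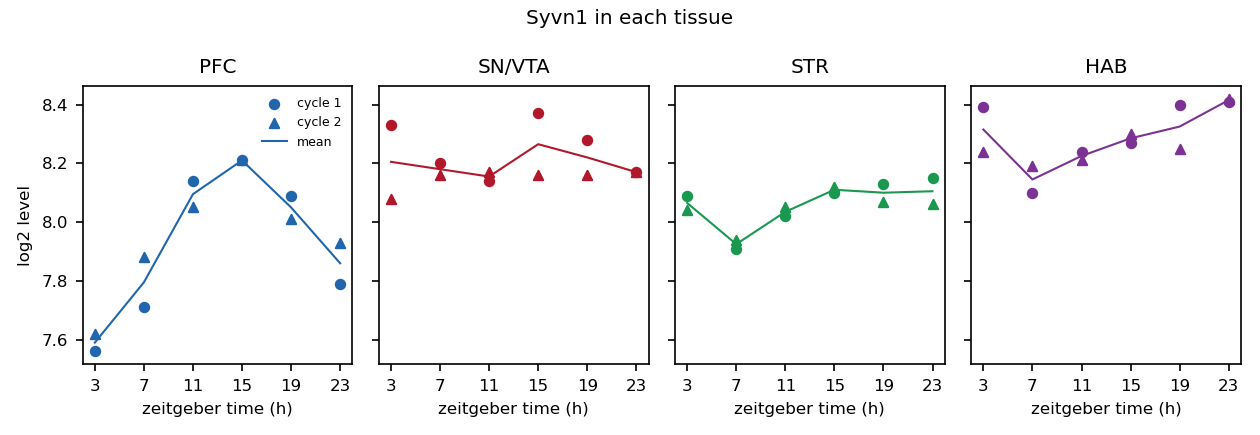
Log2 level of Syvn1 (vertical axis, which does not start at 0) by zeitgeber time in hours (horizontal axis) in each tissue; circles are the first cycle, triangles the second, and lines the mean. In PFC the arrays are lowest at ZT3 and highest at ZT15, and the levels of each other tissue span less than those of PFC.

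The shape and stability of the rhythm were tested on the 12 means of a collection over the 4 tissues. A component of 12 h was called for 0 members and 0% of all genes (limma, adjusted p under 0.05), and an unadjusted p under 0.05 was found for 21 members (9.77%), against 5.43% of all genes. With the 48 arrays taken singly, 2 members passed, Ahsa2 (limma adjusted p = 0.0131) and Gpr17 (0.0402). That fit treats the tissues of a collection as independent. Its share over all genes is not given here, so the count is not read as a result about the members. For Ahsa2 the median array was at -0.14, -0.28, -0.04, 0.22, 0.05 and 0.2 from ZT3 to ZT23, lower at ZT19 than at ZT15 and ZT23. The second cycle was higher than the first for 0 members and lower for 0, as for 0% and 0% of all genes (limma, lowest adjusted p of a member 0.532). An unadjusted p under 0.05 was found for 3 members, Cfap300, Ftx and Uhrf2 (1.4%), against 7.36% of all genes. The rhythm differed between cycles for 0 members and 0% of all genes (limma), and an unadjusted p under 0.05 was found for 3 members (1.4%), against 9.34% of all genes. The fitted amplitude was smaller in the second cycle than in the first for 159 of the 215 members (74%), with medians of 0.0948 and 0.114. That ordering held for 53.4% of all genes tested and, among the other shared rhythm genes, for 47.6% with a peak from ZT5 to ZT11, 76.7% from ZT11 to ZT17 and 52.9% from ZT23 to ZT5.

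The rule removed the mean of each tissue and so did not use level differences between tissues. It did set a floor on the mean level, and the mean log2 level had a median of 8.55 over the members and 7.19 over all genes tested, so that the shares below compare genes of unlike level. In limma, the level of a tissue was compared with the average of the other 3, with an adjusted p under 0.05 and a difference of at least 1 on the log2 scale, and 22 members passed in some tissue. In PFC 12 members were higher (5.58%), against 2.34% of all genes, and 3 were lower (1.4%), against 2.94%. In SN/VTA 4 were higher, against 2.25% of all genes, and 1 lower, against 1.3%. In STR 3 were higher, against 1.03%, and 1 lower, against 1.16%. In HAB 1 was higher, against 1.4%, and 2 lower, against 0.678%. Shares other than that of higher genes in PFC rest on 4 members or fewer.

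Slc39a10, a zinc transporter of the cell membrane, averaged 10.67 ± 0.13 in PFC (SD, n = 12 arrays) against 8.95 in the mean of the other tissues, a difference of 1.72 ± 0.03 (SE; limma adjusted p = 4.77e-29). Its 12 PFC arrays ran from 10.46 to 10.88, with a median of 10.67, and the highest array elsewhere was 9.15. Dnajc21 and Etv5 were higher in PFC by 1.51 ± 0.05 and 1.36 ± 0.04. Thrb and Dio2, named after their values were seen, were both higher in PFC, by 1.29 ± 0.03 and 1.28 ± 0.04. PFC was thus the tissue of the highest level for both thyroid hormone genes.

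In SN/VTA, Apln averaged 8.97 ± 0.15 (SD, n = 12) against 7.25 elsewhere, a difference of 1.71 ± 0.05 (SE; limma adjusted p = 4.49e-22), and its lowest array there, 8.71, was above the highest elsewhere, 8.09. Anln and Erbb3 were higher in SN/VTA by 1.69 ± 0.06 and 1.31 ± 0.05. In STR, Htr1b averaged 9.95 ± 0.17 against 7.87 elsewhere, a difference of 2.09 ± 0.05 (SE; limma adjusted p = 1.1e-23), the largest among the members. Rgs2 and Lrrtm3, a synaptic adhesion protein, were higher in STR by 1.29 ± 0.03 and 1.14 ± 0.04. In HAB, Nptx2 averaged 9.31 ± 0.13 against 8.02 elsewhere (limma adjusted p = 1.86e-21), and Htr1b and Lrrtm3 were lower there by 1.55 and 1.17.

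**Figure D5:**
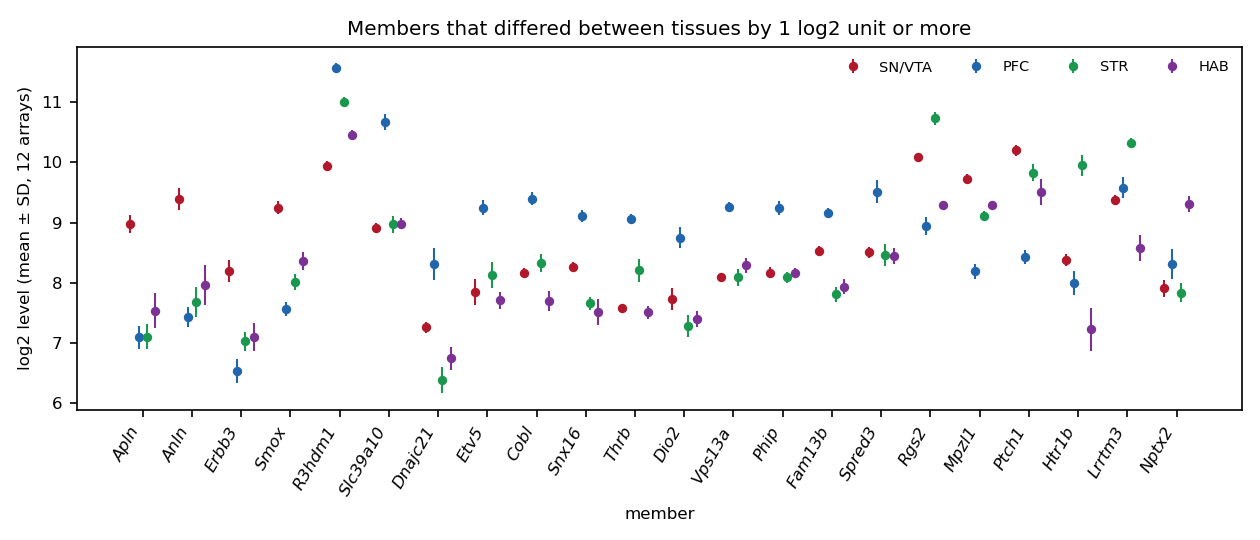
Log2 level (vertical axis, which does not start at 0; mean ± SD of 12 arrays) of the 22 members (horizontal axis) that differed from the mean of the other tissues by 1 or more, with colours for the tissues. Apln and Anln stand highest in SN/VTA, Slc39a10 and 11 others highest in PFC, Htr1b highest in STR and Nptx2 highest in HAB.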

How the data were processed

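RNA of SN/VTA, PFC, STR and HAB of mice was measured on 48 arrays, 12 per tissue. The deposited values, from 1.09 to 13.65, were taken as log2 levels per row; how the authors corrected background and normalized is not given in the sources used here. Groups and cycles came from the labels, and 0 columns were not used. Of 41345 rows 23521 had 1 gene symbol, 1814 several and 16010 none in the platform annotation, and only the first were used, with the row of the highest mean per gene. Of 22180 genes, 17258 had a mean of at least 5.05, the 30th percentile, and were tested. No detection calls were used, and precision is limited by the number of arrays.

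Fits used R 4.3.3, limma 3.58.1 and data.table (version 1.17.8), and motifs and figures in Python 3.11.15 with pandas 2.3.3 and matplotlib 3.10.9. Benjamini-Hochberg adjustment of p-values covered all genes tested, and the code was tested on simulated data. The members, the lists and the tests were chosen with earlier results of these data known. The rule for named genes took the 20 members of largest amplitude, the 5 of smallest p for a tissue difference in rhythm, list members, the 3 highest per tissue, the 3 smallest p for the 12-h and cycle terms and the edges; 9 predicted genes and short RNAs were passed over. Other genes with values, among them Hexim1, Sfpq, Spred1, Dio2 and Thrb, and the groups by role, were chosen after values were seen. By Entrez identifier 214 members matched RefSeq, 205 as protein coding.

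Replicate numbers mark the cycle, per the labels. Array deviations from their group had an average r of 0.0357 in 60 pairs sharing tissue and cycle, with 14 over 0.1, and 0.0357 in 36 pairs sharing a collection, so the numbers were not taken as pairing samples. Alternatives were other scalings, filters, thresholds, fits on collection means, a replicate block, and leaving out each array or cycle.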

Additional observations from a re-analysis of the deposited data

Results flagged for a closer look

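The 20 members of the largest amplitude were examined for arrays far from the other 7 of the same time, which gave 120 groups of 8 arrays; chance marks about 1 in 20 groups, and 10 were marked. The values are log2 differences from the mean of the tissue. The PFC array of the first cycle at ZT7 stood apart for Zbtb40 (0.05) and for Dusp6 (-0.61), and the STR array of the first cycle at ZT11 for Fosl2 (-0.5) and Dusp6 (-0.24). Ahsa2 had 3 such arrays, at ZT7 in STR in the first cycle (-0.44), at ZT11 in HAB in the second (0.22) and at ZT15 in PFC in the first (0.01). The others were Bcl2 at ZT23 in HAB in the first cycle (0.8), Spry4 at ZT15 in STR in the second (0.41) and Mkks at ZT15 in PFC in the second (-0.08). The rhythm of Syvn1 differed between tissues (limma adjusted p = 0.00592).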

How the results depend on the processing

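The 215 members became 44 without replicate 1 (the first cycle; 30 of them shared) and 113 without replicate 2 (81 shared), 51 on collection means (44 shared) and 110 at p under 0.0001. The lower count at the stricter threshold follows by construction, and the cause of the others was not tested. Leaving out single arrays gave 194 to 231 members, of which 186 to 208 were shared. Syvn1's difference between tissues was not called without either cycle (0 members), and was called without any single array (1). With arrays centred on the median, 7 members were higher and 0 lower in SN/VTA and 3 lower in STR, and with quantile normalization 2 were lower in SN/VTA; the cause was not tested. At a difference of at least 0.5, 23 members were higher and 13 lower in SN/VTA, and 36 and 23 in PFC. In STR they were 10 and 21 and in HAB 8 and 16, more than at 1 by construction. The shares of all genes at 0.5 are not given here, so these counts are not read as a result about the members. The 12-h component was called for 2 members on 48 arrays, a fit whose share over all genes is not given here. Leaving out single arrays gave 1 to 3 lower members in SN/VTA (2 without SN/VTA ZT23 of the first cycle, 3 without ZT07 of the second) and 1 to 2 in STR (2 without STR ZT03 of the second). The replicate block gave 223 members and moved no count by over 1.5 times. For the 20 members of largest amplitude, all 1040 recomputed amplitudes moved by less than the spread between replicates, which are the cycles. Where a cycle is left out, that spread contains the change itself, so this count says nothing about stability between cycles. With a cycle left out some still moved by more than their SE. Slc39a2 (0.18 ± 0.03) had 0.246 in the first cycle alone and 0.115 in the second. Tra2a (0.225 ± 0.022) had 0.274 and 0.178, while P4ha1 (0.231 ± 0.028) had 0.226 and 0.235.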
